A study of Mus musculus with 13 samples.

Results

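The genes described here encode the receptor chains of interleukin (IL)-4 and IL-13, the common gamma chain and the chains that pair with it, and a ligand and a kinase that act with them. They were chosen by symbol, and 9 of the 10 genes named were read from a table of 15213 genes: Il13ra1, Il4ra, Il2rg, Il2rb, Il7r, Il21r, Il15ra, Il15 and Jak3. Il13ra2 was not analysed here. Their transcripts were measured by RNA sequencing of total RNA in 10 mammary tumors from 6 female mice that carry MMTV-tTA and TetO-Tsg101 (labelled MtTA Teto-TSG101wt) and in the mammary glands of 3 wild-type FVB females. In the tumor-bearing females, the MMTV promoter drives tTA, a transactivator that tetracyclines switch off, in mammary epithelial cells. Without doxycycline, tTA turns on a transgene that encodes full-length TSG101 and luciferase, and the tumors that form are adenosquamous carcinomas. The wild-type females carry neither transgene, and the transgenic lines had an FVB/N background. The age of the animals and the reproductive stage of the wild-type females are not given in the sources used here. Each gland came from a separate female, whereas some tumors shared a mouse: tumors 2 and 3, tumors 5 and 6, and tumors 8, 9 and 10. The other 3 tumor-bearing females contributed 1 tumor each. Not all tumors were therefore independent, and the p-values measure the spread between these samples.

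IL-4 and IL-13 signal through a shared chain, IL-4Rα, encoded by Il4ra. In the type I receptor, IL-4Rα pairs with the common gamma chain, encoded by Il2rg, and binds IL-4 on cells of the blood lineages. In the type II receptor, which is found on epithelial cells, fibroblasts and macrophages, it pairs with IL-13Rα1, encoded by Il13ra1, and binds either cytokine. Both receptors activate the transcription factor STAT6. The common gamma chain also serves the receptors of IL-2, IL-7, IL-9, IL-15 and IL-21, in which it is bound by the kinase JAK3, and these receptors are best known from lymphocytes.

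Values are given as normalized cpm, read counts divided by a library size that the authors scaled for each library. The depth was 6176269 to 16835397 reads for the tumors, and 23889042, 21407069 and 11672487 for the 3 glands. A value of 0 reads allows a true level of up to 3 reads, which is at most 0.683 normalized cpm in these libraries and covers counting error only. Tsg101 itself averaged 66.5 ± 15.5 normalized cpm over the tumors (SD, n = 10) and 53.2 ± 7.68 over the glands (SD, n = 3), with 6 tumors above every gland. Its log2 fold change was 0.30 (limma adjusted p = 0.296), and reads of the transgene could not be told from those of the endogenous gene. A summed level of 14 epithelial markers was 3016 to 5472 normalized cpm in the tumors and 1826 to 3875 in the glands. The glands were unequal in lymphoid content. A sum of 10 T cell markers was 512 normalized cpm in gland 1, 467 in gland 3 and 23.9 in gland 2, and between 16.7 and 51.8 in the tumors. The tumors were therefore set against all glands and against each gland. The libraries also differed in how a gene's level moved with its GC content, with a slope between -0.453 log2 units per 10 percentage points of GC in tumor 9 and 0.336 in tumor 6. The slopes of the 3 glands were 0.232, 0.185 and -0.309.

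The 250 bases before the start of Il13ra1, Il4ra and Il2rg are shown because these 3 genes encode the chains that make up the type I and type II receptors. They were taken from RefSeq (GRCm38.p6), where 8 of the 10 genes named had an entry, and they are written from 5′ to 3′ on the strand of the gene. Capitals mark every match, on either strand, to the GC box GGGCGG, the box named after its letters CCAAT, and the ETS motif CAGGAAG.
Il13ra1, chrX:36111858-36112107, plus strand: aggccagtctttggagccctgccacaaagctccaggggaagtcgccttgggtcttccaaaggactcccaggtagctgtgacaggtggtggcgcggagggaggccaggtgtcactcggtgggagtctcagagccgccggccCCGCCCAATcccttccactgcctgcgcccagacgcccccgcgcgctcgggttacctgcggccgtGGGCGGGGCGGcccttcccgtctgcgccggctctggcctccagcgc
Il4ra, chr7:125552021-125552270, plus strand: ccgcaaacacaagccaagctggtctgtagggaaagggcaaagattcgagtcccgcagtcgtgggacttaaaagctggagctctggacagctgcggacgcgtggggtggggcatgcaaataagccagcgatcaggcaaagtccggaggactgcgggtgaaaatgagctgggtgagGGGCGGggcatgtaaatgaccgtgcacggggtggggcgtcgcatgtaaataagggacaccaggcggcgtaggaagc
Il2rg, chrX:101268256-101268505, minus strand: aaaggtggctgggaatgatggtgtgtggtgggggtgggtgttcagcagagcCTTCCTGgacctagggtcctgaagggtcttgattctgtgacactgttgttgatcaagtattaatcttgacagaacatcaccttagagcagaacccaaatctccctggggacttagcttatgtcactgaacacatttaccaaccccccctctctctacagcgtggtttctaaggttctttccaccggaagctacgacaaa
The Il13ra1 sequence was the richest of the 3 in GC, at 70.8% against 59.6% for Il4ra and 49.2% for Il2rg, where the median over 32851 promoters was 52.4%. GGGCGG was found 3 times before Il13ra1 (2 of the 3 matches share a base), 1 time before Il4ra and not before Il2rg, and was present in 32.7% of all promoters. CCAAT overlapped the most distant of the GGGCGG matches before Il13ra1 and was present in 33.8% of all promoters. CAGGAAG was found 1 time before Il2rg and in 10.8% of all promoters. A pair of TTC and GAA with 4 bases between them, the form that STAT6 prefers, is present in 5.85% of all promoters, and the pair with 3 bases between them, preferred by other STATs, in 7.02%. Neither had a match in these 3 windows, nor had TATAAA, which is present in 12.4% of all promoters. Such matches describe the letters only.

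Expression of Il13ra1 (Entrez 16164; GRCm38.p6 chromosome X, 36112108 to 36171262), the chain that completes the type II receptor, was higher in every tumor than in any gland. The tumors ranged from 80.1 normalized cpm in tumor 6 to 372 in tumor 9, with a median of 159. The glands were at 15.5, 10.3 and 29.3 normalized cpm. The groups did not overlap, which was also the case for 11.4% of all listed genes in this direction. The mean level was 188 ± 91.3 normalized cpm for the tumors (SD, n = 10) and 18.3 ± 9.81 for the glands (SD, n = 3), a ratio of 10.2. On the scale of log2(normalized cpm + 1), the log2 fold change was 3.27 (standard error, SE, 0.39, 95% interval 2.43 to 4.12, limma adjusted p = 2.63e-05). Set against each gland, it was 3.38 for gland 1 (adjusted p = 0.00187), 3.93 for gland 2 (adjusted p = 0.000956) and 2.50 for gland 3 (limma adjusted p = 0.0118). The rise was thus present against the glands with many T cell transcripts and against the gland with few.
Among the tumors, Il13ra1 followed the GC slope of the libraries. Tumors 9 and 1, which had the highest levels, had the most negative slopes (-0.453 and -0.375), and tumor 6, with the lowest level, had the most positive. Tumor 9 also stood apart in its reads of Rn45s, the precursor of ribosomal RNA, which made up 27.4% of its reads against 0.456% to 9.32% in the other tumors and 0.296% to 4.35% in the glands. The exons of Il13ra1 have a GC content of 41.2%, higher than that of only 9.16% of the genes. With the trend on GC removed from each library, an alternative added after the data were seen, the tumors lay between 101 and 277 normalized cpm, the glands at 18.2, 11.8 and 25.0. The log2 fold change was then 3.19 (limma adjusted p = 1.04e-06). Between the lowest and the highest tumor, the ratio decreased from 4.64 to 2.75, so that part of the spread among tumors moved with the slope. Without tumors 1 and 9, the log2 fold change was 3.02 (limma adjusted p = 1.73e-05).

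Il4ra (Entrez 16190; chromosome 7, 125552271 to 125579474), the chain that both receptors share, was not significantly deregulated. The tumors ranged from 40.2 normalized cpm in tumor 10 to 137 in tumor 7, with a median of 82.7. The glands were at 110, 68.3 and 96.4 normalized cpm. These ranges overlapped, with 3 tumors above and 4 below all glands. The log2 fold change was -0.17 (SE 0.34, 95% interval -0.89 to 0.56, limma adjusted p = 0.754), so that neither a rise nor a fall of more than 2-fold lies within the interval of this fit. With the libraries scaled to epithelial genes, Il4ra was called lower (-1.05, limma adjusted p = 0.0142), where the median over all genes was -0.85. Tumors 8, 9 and 10, which came from a single mouse, were all low, at 55.0, 59.0 and 40.2 normalized cpm, as was tumor 1. Exons of Il4ra share 571 bases with the antisense gene Gm44876. Whether strand was used in counting is not given in the sources used here, and without it reads of the pair cannot be told apart.

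Il2rg (Entrez 16186; chromosome X, 101264385 to 101268255), which encodes the common gamma chain, was lower in all tumors than in any gland. The tumors ranged from 5.04 normalized cpm in tumor 10 to 12.7 in tumor 7, with a median of 8.90. The glands were at 89.1, 17.5 and 49.6 normalized cpm. The groups did not overlap, as for 10.3% of all listed genes in this direction, but gland 2 was much closer to the tumors than the other glands. The mean level was 8.78 ± 2.72 normalized cpm for the tumors (SD, n = 10) and 52.1 ± 35.8 for the glands (SD, n = 3), 5.93 times as high. The log2 fold change was -2.22 (SE 0.38, 95% interval -3.02 to -1.41, limma adjusted p = 0.000464). Set against each gland it was -3.26 for gland 1 (adjusted p = 0.000267) and -2.42 for gland 3 (adjusted p = 0.00188), but against gland 2 it was -0.97 and did not pass the test (limma adjusted p = 0.143). Exons of Il2rg share 728 bases with the gene Gm20489 on the same strand, which was not used here.

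Among the chains that pair with the common gamma chain, Il2rb and Il21r were significantly lower in the tumors and Il7r was not significantly deregulated. Il2rb (Entrez 16185; chromosome 15, 78479256 to 78511621) encodes the beta chain of the IL-2 and IL-15 receptors, found mainly on T and NK cells. It ranged from 0.910 normalized cpm in tumor 9 to 4.44 in tumor 6, with a median of 2.08, and was at 32.7, 9.91 and 16.2 in the glands. Again all tumors were below all glands, as for 10.3% of all listed genes. Between 4 and 59 reads stood behind each tumor value, and between 133 and 763 behind each gland value. Il2rb did not pass the filter on low abundance, since every tumor was below its limit of 5 normalized cpm. Its log2 fold change of -2.59 (SE 0.34, limma adjusted p = 4.73e-05) comes from the fit without the filter. The fall was significant against gland 1 (-3.46), gland 2 (-1.83, adjusted p = 0.0205) and gland 3 (-2.49, limma adjusted p = 0.00307).
Il21r (Entrez 60504; chromosome 7, 125603252 to 125634397) encodes the chain specific to IL-21, a cytokine that acts on B, T and NK cells. It ranged from 3.87 normalized cpm in tumor 5 to 11.2 in tumor 1, with a median of 5.48, and was at 43.1, 6.09 and 44.6 in the glands. The value of gland 2 lay within the range of the tumors. Over all glands, the log2 fold change was -1.81 (SE 0.45, limma adjusted p = 0.00785). With the tumors of a mouse averaged, it was -1.73 (limma adjusted p = 0.0438). Against gland 1 it was -2.67 (adjusted p = 0.00101) and against gland 3 -2.72 (adjusted p = 0.000910), whereas against gland 2 it was -0.03 (95% interval -0.96 to 0.89, limma adjusted p = 0.964). Without gland 1 the fall over the remaining glands was no longer significant (-1.38, limma adjusted p = 0.0786).
Il7r (Entrez 16197; chromosome 15, 9506159 to 9529941) encodes the alpha chain of the IL-7 receptor, which naive and memory T cells carry. It ranged from 6.67 normalized cpm in tumor 10 to 21.2 in tumor 3, with a median of 10.1, and was at 37.9, 2.43 and 30.4 in the glands. All tumors lay between gland 2 and the other glands. The log2 fold change over all glands was -0.38 (SE 0.56, limma adjusted p = 0.659), which averages differences of opposite sign. Il7r was significantly lower than in gland 1 (-1.65, limma adjusted p = 0.0381), significantly higher than in gland 2 (1.85, limma adjusted p = 0.0265), and did not pass the test against gland 3 (-1.34, limma adjusted p = 0.0916). Without gland 2 it was significantly lower in the tumors (-1.50, limma adjusted p = 0.00868). With the trend on GC removed, the difference from gland 2 was 1.63 and no longer passed the test (limma adjusted p = 0.0584), while 10 of 10 tumors stayed above that gland.

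Neither Il15ra nor Il15 was significantly deregulated over all glands. Il15ra (Entrez 16169; chromosome 2, 11705172 to 11733985) encodes the chain that binds IL-15 and presents it to neighbouring cells. It had the widest range of the 9 genes among the tumors, as a ratio of highest to lowest, from 14.5 normalized cpm in tumor 7 to 98.3 in tumor 10, with a median of 49.7, and was at 25.9, 35.5 and 52.2 in the glands. The ranges overlapped, with 5 tumors above and 2 below all glands, and the log2 fold change was 0.25 (SE 0.47, 95% interval -0.75 to 1.25, limma adjusted p = 0.729).
Il15 (Entrez 16168; chromosome 8, 82331624 to 82403252), the ligand of this chain, ranged from 8.49 normalized cpm in tumor 7 to 32.6 in tumor 10, with a median of 19.2. The glands were at 20.2, 23.6 and 79.2 normalized cpm, and gland 3 stood above all other libraries. Gland 3 also had the highest sum of 6 adipocyte markers, at 10442 normalized cpm against 3233 and 3688 in glands 1 and 2. The tumors were at 37.6 to 380, and all 6 markers were significantly lower there, beside 10.1% of all listed genes. The part of adipocytes in the Il15 level was not tested. In limma, the log2 fold change was -0.79 (SE 0.45, limma adjusted p = 0.221). Against gland 3 alone Il15 was significantly lower (-2.00, limma adjusted p = 0.0470), and this difference did not pass the test with the trend on GC removed (-1.92, limma adjusted p = 0.0522). Against glands 1 and 2 the log2 fold changes were -0.08 and -0.29. The lowest and the highest tumor were the same for Il15ra and Il15.

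Jak3 (Entrez 16453; chromosome 8, 71676383 to 71690577), whose product binds to the common gamma chain, did not fall with Il2rg. The tumors ranged from 20.0 normalized cpm in tumor 9 to 70.3 in tumor 8, with a median of 49.8. The glands were at 80.6, 43.4 and 31.2 normalized cpm. In limma, the log2 fold change was -0.06 (SE 0.34, 95% interval -0.79 to 0.68, limma adjusted p = 0.924), and its sign turned under several alternatives. With the libraries scaled to epithelial genes it was -0.93 (limma adjusted p = 0.0096), where the median over all genes was -0.85. The exons of Jak3 have a GC content of 61.0%, higher than that of 97.7% of the genes, and the tumors with the most negative slopes, tumors 9 and 1, had its lowest levels. With the trend on GC removed, the tumors lay between 26.5 and 65.6 normalized cpm, the glands at 69.2, 38.1 and 41.6. Jak3 shares 404 exon bases with Insl3 on the same strand, which was at 1.07 normalized cpm in the tumors and 1.26 in the glands.

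**Figure D1:**
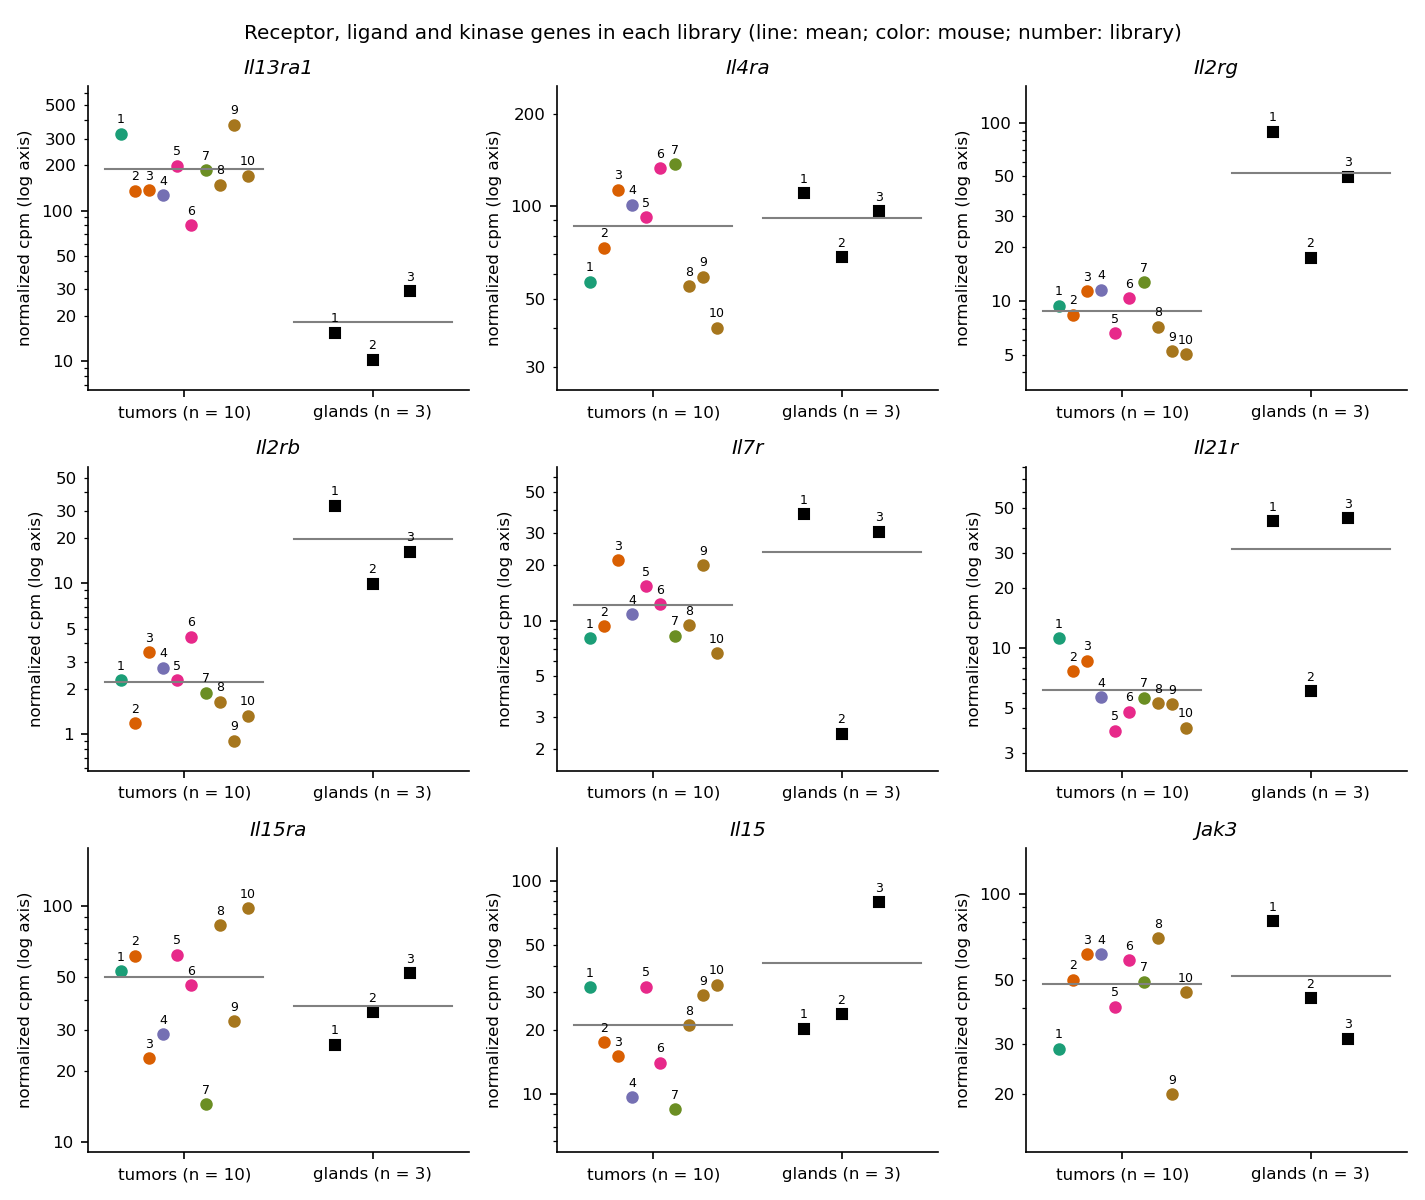
Normalized cpm (log axis) of the 9 genes in each of 10 tumors (circles, 1 color per mouse) and 3 glands (black squares), numbered by library, with a grey line at the mean of each group. All tumors lie above all glands for Il13ra1 (80.1 to 372 against 10.3 to 29.3) and below them for Il2rg and Il2rb, whereas gland 2 lies among the tumors for Il21r and below them for Il7r.

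Of the 9 genes, 1 was significantly higher and 3 were significantly lower in the tumors, by a change of more than 2-fold with an FDR below 0.05. The background of such calls was 10.2% of the 11795 genes past the filter for the higher direction and 6.99% for the lower. Without the filter, on which the call of Il2rb rests, it was 10.5% and 10.1% of 15213 genes. The 9 genes had a median log2 fold change of -0.38, and that of all genes past the filter was 0.01. Of the 9 genes, 8 passed the filter. Against gland 1, 1 gene was higher and 4 were lower (background 8.04% higher and 9.1% lower). Against gland 2, 2 were higher and 1 was lower (7.07% and 7.08%). Against gland 3, 1 was higher and 4 were lower (7.45% and 8.15%). In these comparisons each gland is a single library, which is assumed to vary as the tumors do, and the 3 comparisons share the same tumors. Il13ra1 was higher and Il2rb lower against each of the 3 glands, and Il4ra, Il15ra and Jak3 passed the test against none. With the trend on GC removed, the calls of Il7r against gland 2 and of Il15 against gland 3 were lost and no other call of the 9 genes changed. The background was then 9.06% higher and 9.57% lower for gland 1, 8.03% and 7.62% for gland 2, and 7.93% and 8.64% for gland 3.

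**Figure D2:**
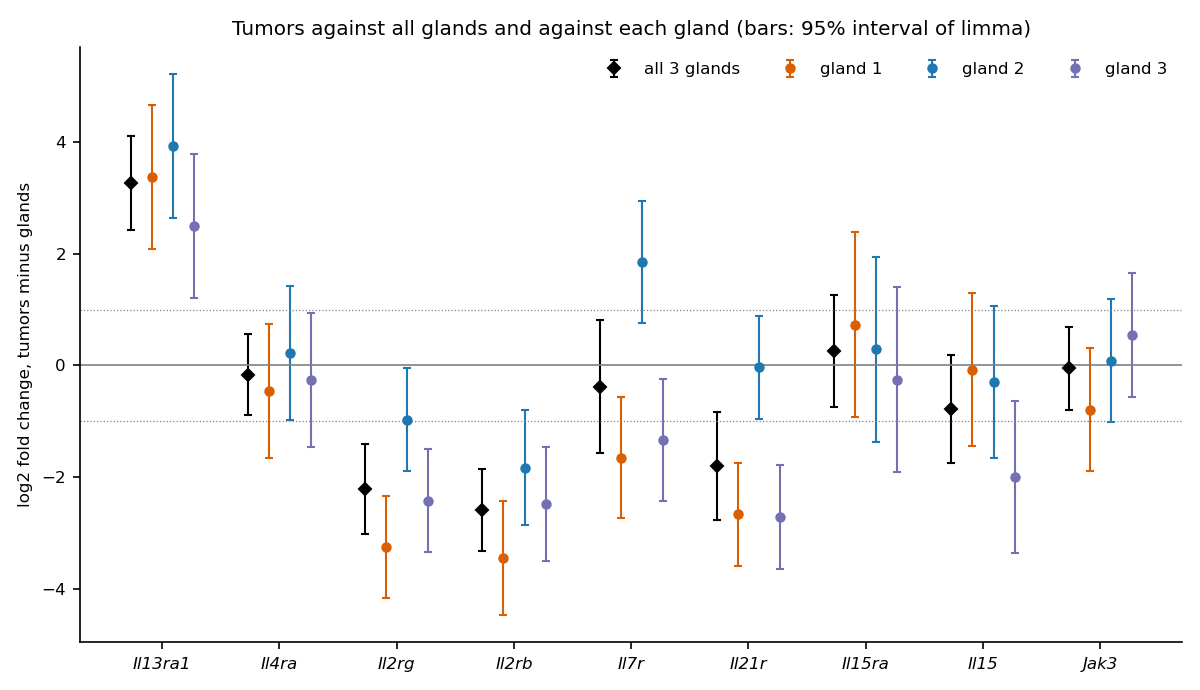
Log2 fold change of the 9 genes, tumors minus glands on the log2(normalized cpm + 1) scale, over all 3 glands (black) and against each gland (colors), with 95% intervals of limma and dotted lines at a 2-fold change. Il13ra1 lies between 2.50 and 3.93 against every gland, Il21r near 0 against gland 2 only, and Il7r at 1.85 against gland 2 but at -1.65 and -1.34 against the others.

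The falls of Il2rg, Il2rb and Il21r stood beside a fall of lymphocyte transcripts. Of 10 T cell markers, 9 were significantly lower in the tumors, as were 5 of 6 NK cell markers and 4 of 9 B and plasma cell markers. Over all listed genes, 10.1% were lower and 10.5% higher. Cd3e, a chain of the T cell receptor complex, had a log2 fold change of -3.02 (limma adjusted p = 0.000554) and Cd79a, of the B cell receptor, one of -2.94 (limma adjusted p = 0.0203). Ptprc, which all leukocytes carry, had a log2 fold change of -1.09 and did not pass the test (limma adjusted p = 0.189). No T cell marker was at 0 in any library, whereas 3 B and plasma cell markers were at 0 in at least 1 tumor. The B and plasma cell sum was 332 normalized cpm in gland 1, 18.9 in gland 2 and 409 in gland 3, and ranged in the tumors from 12.1 to 349, with a median of 28.3 and its highest value in tumor 1. The NK cell sum was 41.8, 17.4 and 78.1 in the glands and at most 11.9 in the tumors. Macrophage markers were not lower, at 376 to 748 in the tumors against 281 to 332 in the glands. The neutrophil list (S100a8, S100a9, Csf3r, Cxcr2 and Ly6g, of which 4 were read) reached 302 to 3937 in the tumors against 3.87 to 48.4 in the glands. Which cells its transcripts came from was not tested. In bulk tissue, fewer cells of a type and less RNA per cell cannot be told apart, and the part of these cells in the results was not tested.
Gland 2 had a T cell sum of 23.9 normalized cpm, within the range of the tumors. Its Cd3e level was 4.44 normalized cpm, above the tumors at 0.798 to 3.05. Against gland 2, Il21r did not differ beyond the spread and Il2rg missed the threshold, while Il2rb was lower and Il13ra1 and Il7r were higher. Per 100 normalized cpm of T cell markers, Il2rg stood at 17.4 normalized cpm in gland 1, 73.4 in gland 2 and 10.6 in gland 3, and between 18.2 and 60.2 in the tumors, inside the range of the glands. Per 100 normalized cpm of T cell markers, Il7r stood at 7.39, 10.2 and 6.50 in the glands and between 15.5 and 92.2 in the tumors, above every gland in all 10. On the same scale, Il2rb stood at 6.38, 41.6 and 3.47 in the glands and between 3.88 and 19.1 in the tumors, inside the range of the glands. Il21r stood at 8.42, 25.5 and 9.55 in the glands and between 17.3 and 37.6 in the tumors, above every gland in 4 of 10 and below none. The picture depended on the reference. Relative to Ptprc, Il2rg was below every gland in 6 of 10 tumors, Il2rb in 7 of 10 and Il7r in 1 of 10 (tumor 1), while the other 9 tumors were above every gland for Il7r. Il21r over Ptprc was at 0.159, 0.237 and 0.165 in the glands and between 0.0402 and 0.160 in the tumors, below every gland in 9 of 10. Tumor 1, which had the highest T, B and NK cell sums of the tumors, also had the highest Il21r level.

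**Figure D3:**
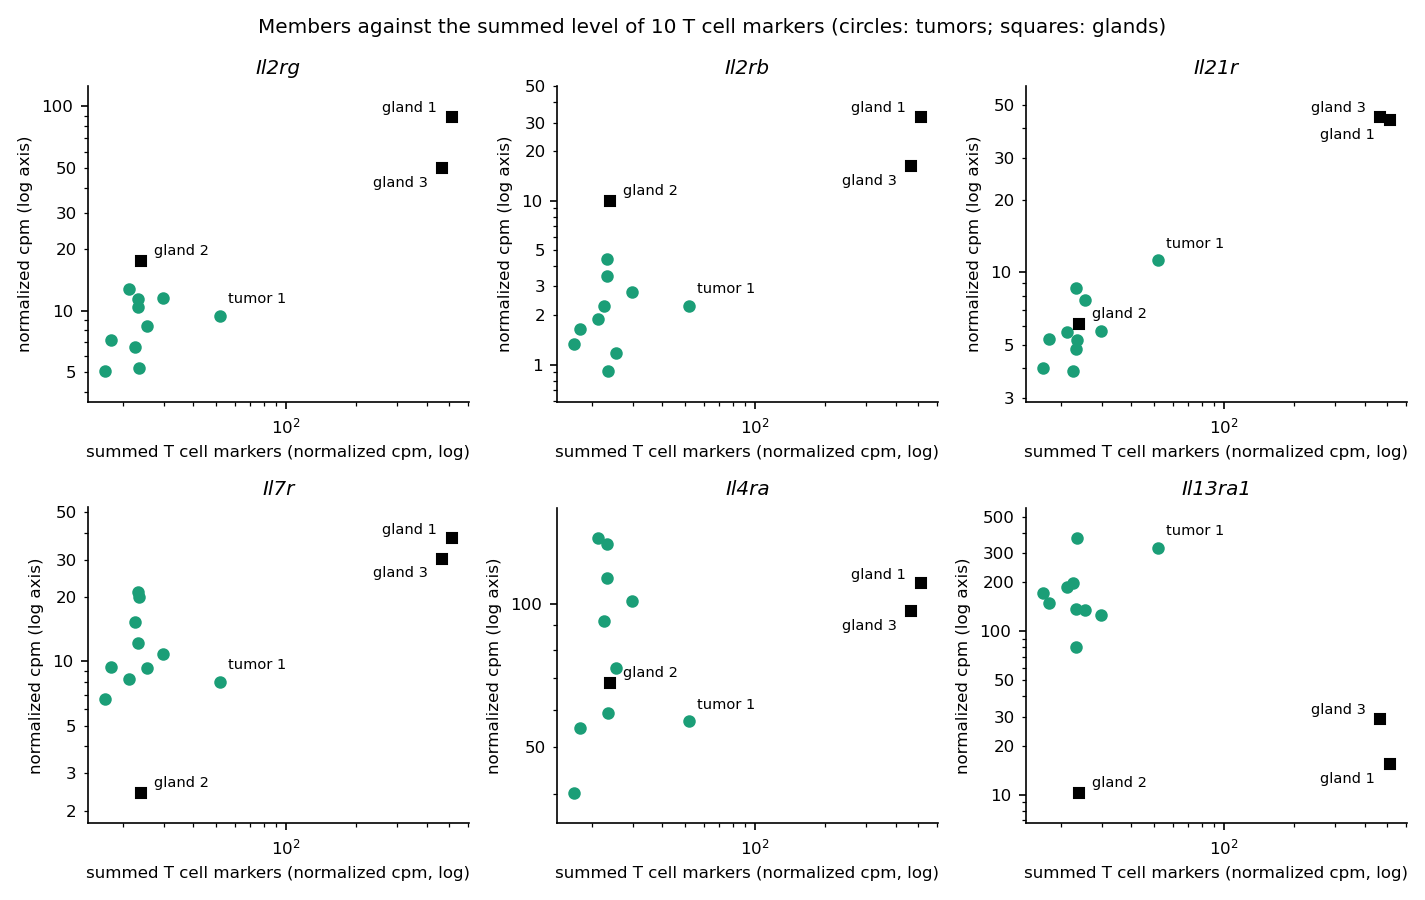
Normalized cpm of 6 of the genes (vertical log axis) against the summed normalized cpm of 10 T cell markers (horizontal log axis) in 10 tumors (circles) and 3 glands (squares). Glands 1 and 3 lie far to the right, at 512 and 467, with high Il2rg, Il2rb, Il21r and Il7r, and gland 2, at 23.9, lies among the tumors for Il21r but far below them for Il13ra1.

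Set per kilobase of exon, which allows levels of different genes to be compared, the order of the genes differed between tumors and glands. In the tumors, Il13ra1 led with a mean of 50.5 normalized cpm per kb, followed by Il4ra (14.3), Il15ra (11.3), Il15 (9.33), Jak3 (9.10), Il2rg (3.68), Il7r (2.60), Il21r (1.87) and Il2rb (0.518). Il13ra1 was above Il4ra in 9 of 10 tumors, Jak3 above Il2rg in 10 and Il21r above Il2rb in 10. The 3 steps from Il4ra through Il15ra and Il15 to Jak3 were within the spread, with the order of the means kept in 6, 5 and 4 of 10 tumors. In the glands, Il2rg led with 21.8 normalized cpm per kb, followed by Il15 (18.1), Il4ra (15.3), Jak3 (9.66), Il21r (9.41), Il15ra (8.51), Il7r (5.05), Il13ra1 (4.94) and Il2rb (4.57). With 3 glands, Il4ra above Jak3 was the one step between neighbours that all of them showed.
The ratio between the transcripts of the chains that pair with IL-4Rα did not overlap between the groups. In bulk tissue these transcripts may come from different cells, so that the ratios do not describe the chains within a cell. The part of the cell mix in the ratios was not tested. Per kb of exon, the ratio of Il13ra1 to Il2rg was 0.112, 0.377 and 0.379 in the glands and between 4.96 (tumor 6) and 45.7 (tumor 9) in the tumors, with a median of 11.8. Each gland thus held more Il2rg than Il13ra1 transcript, and each tumor more Il13ra1. The ratio of Il13ra1 to Il4ra was 0.227, 0.243 and 0.491 in the glands and between 0.974 and 10.2 in the tumors, and that of Il4ra to Il2rg was 0.492, 1.55 and 0.773 in the glands and between 2.40 and 5.54 in the tumors. Jak3 over Il2rg was 0.404, 1.11 and 0.281 in the glands and between 1.37 and 4.36 in the tumors. For each of these ratios, all 10 tumors were above all 3 glands, also with the trend on GC removed. With that trend removed, Il13ra1 over Il4ra ranged in the tumors from 1.41 in tumor 6 to 6.29 in tumor 10, so that Il13ra1 was above Il4ra in 10 of 10 tumors, and Il13ra1 over Il2rg ranged from 6.30 to 34.4. These ratios follow from the levels given above and were not tested apart.

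Tumors of the same mouse were not closer to each other throughout. Il13ra1 was at 135 and 137 normalized cpm in tumors 2 and 3 of one mouse, a ratio of 1.01, but differed by a ratio of 2.47 between tumors 5 and 6 and by up to 2.51 among tumors 8, 9 and 10. For Il2rg the ratios within these 3 mice were 1.35, 1.57 and 1.42. For Il21r they were 1.13, 1.24 and 1.32, where the ratio over all tumors was 2.90. For Il4ra they were 1.54, 1.44 and 1.47, where the ratio over all tumors was 3.42. Il15ra differed by 2.72, 1.35 and 3.02, and Jak3 by 1.23, 1.46 and 3.51, with tumor 9 at the low end among tumors 8, 9 and 10. Over all genes past the filter, the estimated correlation within a mouse was 0.0477.

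**Figure D4:**
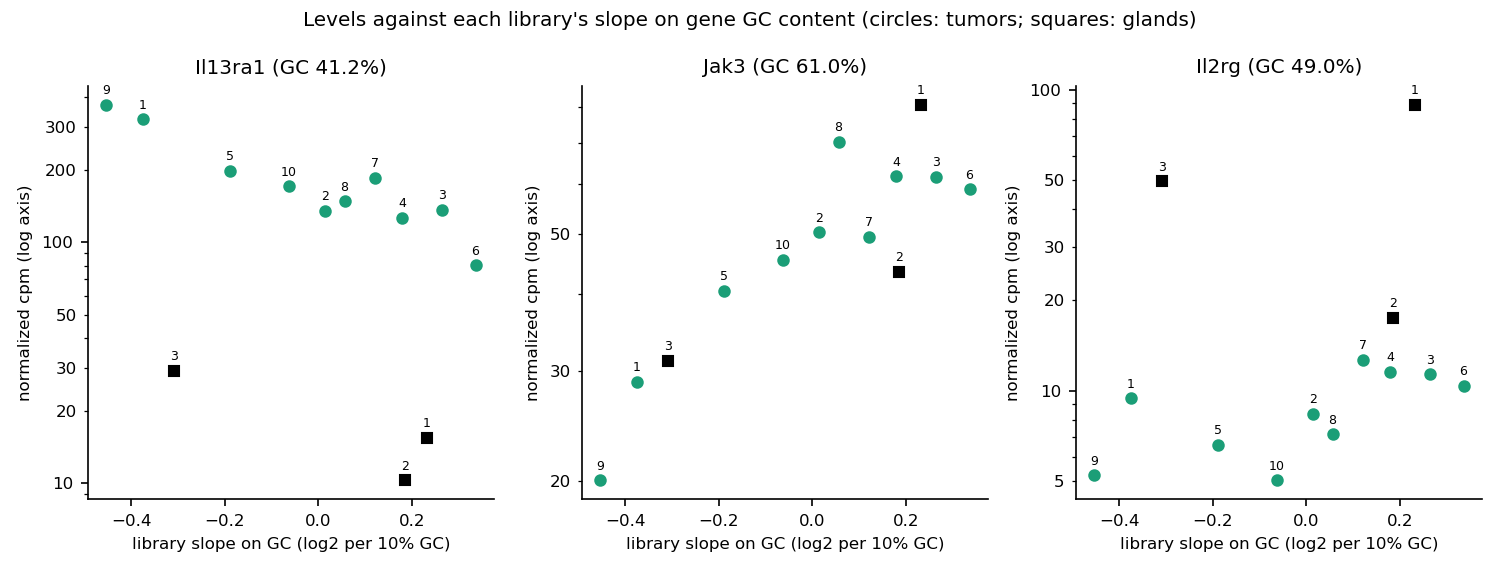
Normalized cpm (vertical log axis) of Il13ra1, Jak3 and Il2rg against the slope of each library on gene GC content (log2 units per 10 percentage points) in 10 tumors (circles) and 3 glands (squares), numbered by library. Tumors 9 and 1, with slopes of -0.453 and -0.375, have the highest Il13ra1 and the lowest Jak3, and the glands lie far below the tumors for Il13ra1 at slopes of either sign.

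Beyond the receptors, 56 of 63 other genes of the pathway were read. Without the 9 genes above, 6 of the 56 were significantly higher and 13 significantly lower, 43 passed the filter, and the median log2 fold change was -0.36. These shares, 10.7% higher and 23.2% lower, stand beside a background of 10.5% and 10.1% of all listed genes, and nothing was tested for the list. Of 7 ligands, Il7 and Tslp were read and neither was called over all glands, whereas Tslp was called lower against gland 3 (-1.52, limma adjusted p = 0.0273). Of the other receptor chains, Il2ra (log2 fold change -0.98, limma adjusted p = 0.0514), Il9r (-0.83, limma adjusted p = 0.352) and Crlf2 did not pass the test over all glands. Il9r, the chain specific to IL-9, was at 13.9, 0.0516 (1 read) and 15.8 normalized cpm in the glands and at 1.42 to 8.64 in the tumors, so that all tumors lay between gland 2 and the other glands, as for Il7r. It was called lower against glands 1 and 3 and higher against gland 2 (limma adjusted p = 0.0385). Il2ra, the alpha chain of the IL-2 receptor, was called lower against gland 1 (-1.80, limma adjusted p = 0.0109) and gland 3 (-1.35, limma adjusted p = 0.0467), and gland 2 lay within the range of the tumors.
Of 9 kinases and STATs, 2 were lower. Stat4, which acts downstream of IL-12, had a log2 fold change of -1.36 (limma adjusted p = 0.0143), but gland 2, at 0.981 normalized cpm, lay within the range of the tumors (0.02 against that gland, limma adjusted p = 0.974). Stat5a, which acts downstream of prolactin and of the common gamma chain, had one of -1.03 (limma adjusted p = 0.0468). Stat5b had one of -0.99 (limma adjusted p = 0.00532), just short of the 2-fold limit. All 10 tumors were below all glands for Stat5b, as for 10.3% of all listed genes. Against glands 1, 2 and 3 the log2 fold change of Stat5b was -1.17, -1.19 and -0.61. Stat6, the transcription factor of the IL-4 and IL-13 receptors, averaged 94.6 ± 15.7 normalized cpm over the tumors (SD, n = 10) and 111 ± 14.9 over the glands (SD, n = 3) (log2 fold change -0.24, limma adjusted p = 0.348).
Of 8 adaptors, Pik3r1, the regulatory subunit of PI3K, was higher over all glands (1.16, limma adjusted p = 0.00367). All tumors were above all glands for Pik3r1, as for 11.4% of all listed genes. Pik3r1 passed the test only against gland 3 (2.00) and not against gland 1 (0.81) or gland 2 (0.67). Pik3cd, a catalytic subunit of leukocytes, was lower (-1.62, limma adjusted p = 0.00951), and this difference was absent against gland 2 (0.12, limma adjusted p = 0.832), which was at 12.2 normalized cpm where the tumors were at 9.56 to 19.2. Of 11 inhibitors, Socs3 was higher and Socs2 and Cish, both induced through STAT5, were lower. Socs3 lay at 23.2 to 71.6 normalized cpm in the tumors against 11.2, 5.73 and 9.51 in the glands, with a log2 fold change of 2.20 (SE 0.29, limma adjusted p = 5.41e-05), and its rise was significant against each gland (1.85, 2.71 and 2.06). The log2 fold changes of Socs2 and Cish were -1.12 (limma adjusted p = 0.00156) and -1.63 (limma adjusted p = 0.00159).

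Genes that IL-4 or IL-13 induce through STAT6 did not move in a single direction. Of 16, 14 were read, 3 were higher (21.4%), 5 were lower (35.7%) and 6 did not pass the test, beside 10.5% and 10.1% of all listed genes. Their median log2 fold change was -0.99. Arg1, the arginase of macrophages under IL-4 or IL-13, lay at 47.3 to 281 normalized cpm in the tumors against 1.67, 3.30 and 3.41 in the glands, with a log2 fold change of 4.95 (SE 0.51, limma adjusted p = 5.74e-06). Alox15, a lipoxygenase, lay at 9.66 to 24.8 normalized cpm in the tumors against 3.38, 4.23 and 1.22 in the glands, with a log2 fold change of 2.20 (SE 0.27, limma adjusted p = 3.53e-05). The transcription factor gene Egr2 had a log2 fold change of 1.47 (limma adjusted p = 0.00327). Against glands 1, 2 and 3 that of Egr2 was 1.22, 1.90 and 1.28, and it passed the test against gland 2 only. For these 3 genes all tumors were above all glands, as for 11.4% of all listed genes. The same held for the sums of the macrophage and the neutrophil list. Of the macrophage markers, 2 of 8 were significantly higher in the tumors, and of the neutrophil markers 3 of the 4 read, beside 10.5% of all listed genes. The part of these cells in the rises was not tested.
The chemokine genes Ccl11 (-1.83, limma adjusted p = 0.0143) and Ccl22 (-2.62, limma adjusted p = 0.00768) were lower, as were Postn, which encodes a matrix protein of fibroblasts (-1.24, limma adjusted p = 0.0283), the transglutaminase gene Tgm2 (-1.35, limma adjusted p = 0.0380), and Fcer2a, the IgE receptor of B cells (-2.88, limma adjusted p = 0.0136). Of these, Ccl22 was at 46.9, 2.07 and 29.7 normalized cpm and Fcer2a at 38.7, 0.310 and 26.2 in the glands, so that gland 2 lay within the range of the tumors for both, as it did for the T cell sum. A sum of 8 fibroblast markers was 417 to 1160 normalized cpm in the tumors and 3941 to 4494 in the glands, beside the fall of Postn. Retnla and Mrc1, markers of macrophages under IL-4, did not pass the test (-1.49, adjusted p = 0.201, and -0.44, limma adjusted p = 0.567). Clec10a, a lectin gene of macrophages and dendritic cells, narrowly missed it (-1.24, limma adjusted p = 0.0505), with 9 of 10 tumors below all glands.
Of 9 genes that the common gamma chain induces through STAT5, 1 was higher (11.1%) and 3 were lower (33.3%), beside the same 10.5% and 10.1%, with a median log2 fold change of -0.13. Ccnd3, a D-type cyclin, had a log2 fold change of 1.06 (limma adjusted p = 0.0355), with 0.51, 0.84 and 1.84 against glands 1, 2 and 3. The kinase gene Pim1 was at 39.4 to 74.1 normalized cpm in the tumors against 115 to 130 in the glands (-1.19, limma adjusted p = 0.000399), and was significantly lower against each gland (-1.11, -1.18 and -1.28). Ccnd2 (-2.27, limma adjusted p = 0.00181) and Gzmb, the granzyme of cytotoxic lymphocytes (-1.73, limma adjusted p = 0.00140), were lower as well. Of the 19 called genes of the pathway, Arg1, Alox15, Socs3 and Pim1 passed the test against each of the 3 glands, whereas Stat5a, Postn and Tgm2 passed it against no single gland. Of the other 12, Ccl22, Ccnd2, Cish, Fcer2a, Pik3cd and Stat4 passed it against 2 glands. Ccl11, Ccnd3, Egr2, Gzmb, Pik3r1 and Socs2 passed it against 1. Counted against each gland, 3 of the 56 genes were higher and 12 lower for gland 1 (background 8.04% higher and 9.1% lower), 5 and 6 for gland 2 (7.07% and 7.08%), and 5 and 12 for gland 3 (7.45% and 8.15%).

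**Figure D5:**
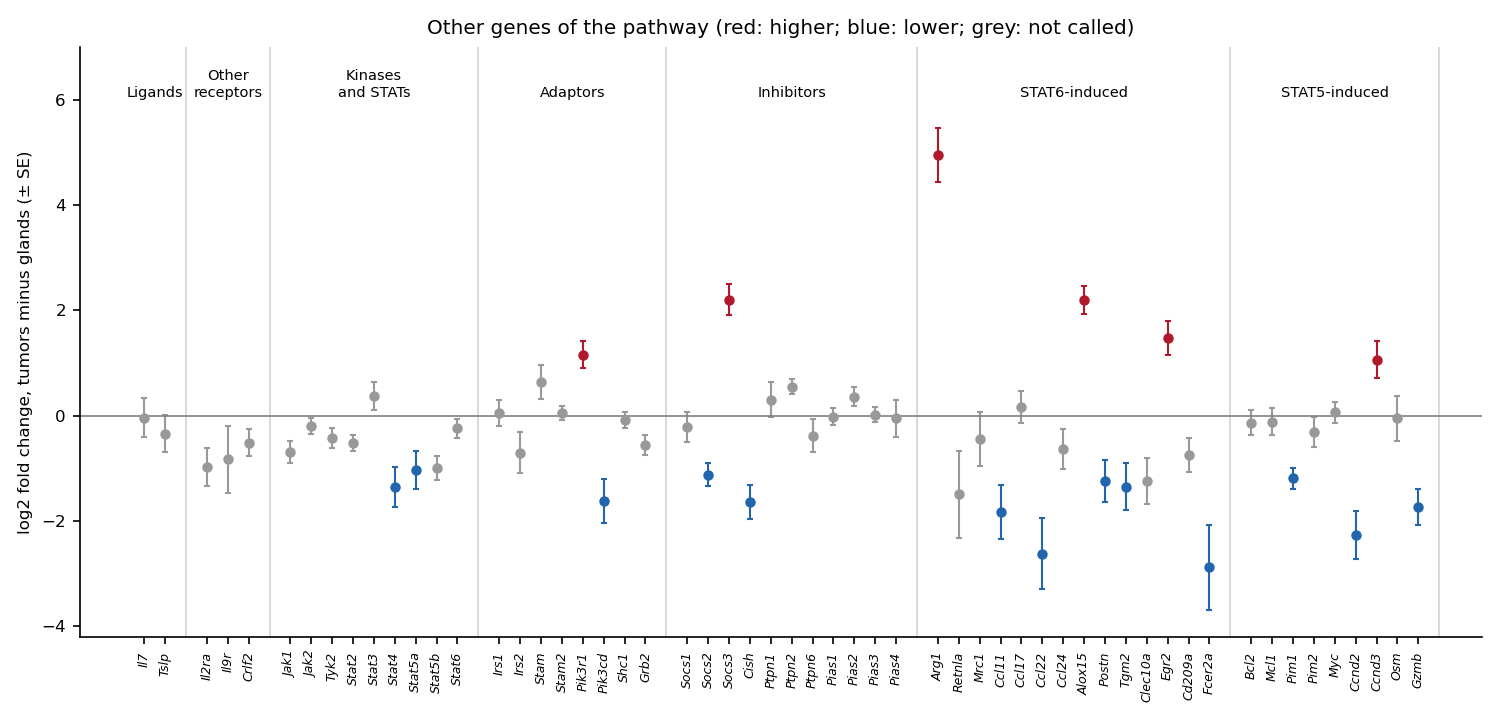
Log2 fold change (tumors minus glands, with the standard error of limma) of the 56 other genes of the pathway, ordered by role, with significantly higher genes in red, lower genes in blue and the others in grey. Arg1 (4.95), Socs3 (2.20) and Alox15 (2.20) have the largest rises, and Fcer2a (-2.88) and Ccl22 (-2.62) the largest falls.

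The genes whose levels followed Il13ra1 most closely over the 10 tumors, by Pearson's r of log2(normalized cpm + 1) among 11794 genes, were Bmt2 (0.99), Ube2w (0.98), Zfp53 (0.98), Tmem243 (0.98) and Cav2 (0.98). All 5 have a low GC content, between 37.5% and 39.8%, and none of the 5 was significantly deregulated between tumors and glands. With the trend on GC removed, Cav2 and Zfp53 remained among the 5 closest, beside Nradd, Insig2 and S100a16, with r between 0.96 and 0.98. Of these, Nradd (1.44) and S100a16 (1.85) were significantly higher in the tumors over all glands. For Il2rg the closest genes were Spn (0.96), a sialoglycoprotein of leukocytes, and Ets1 (0.95), a transcription factor of lymphocytes and endothelium, followed by Urb2 (0.94), Emb (0.94) and Smarce1 (0.93). Spn and Ets1 were significantly lower in the tumors, with log2 fold changes of -1.97 and -1.79. Endothelial markers fell beside Ets1, with 6 of 6 significantly lower, where 10.1% of all listed genes were. Their sum was 36.2 to 95.1 normalized cpm in the tumors against 513, 516 and 170 in the glands. The part of endothelial cells in the fall of Ets1 was not tested. With the trend on GC removed, Ets1 and Emb remained, beside Arntl2, Dpy19l4 and Tgfb1, and the closest gene was Arntl2 (r = 0.97), which was significantly higher in the tumors (1.38). The points share libraries, depth, GC slope and, in part, mice.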

How the data were processed

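Total RNA of 10 tumors and 3 glands was sequenced, and the authors aligned read pairs to mm10 (Rsubread), counted reads per gene (featureCounts) and normalized them (edgeR). The values deposited by the authors are a signal, the count of a gene over a scaled library size. Divided by the value of 1 read, 100% of them gave whole reads (within 0.01), which served as recovered counts. The groups follow the sample labels, and no sample was left out. Tumors and glands were compared with limma 3.58.1 (R 4.3.3) on log2(normalized cpm + 1), with a variance trend and Benjamini-Hochberg adjustment. A gene had to exceed 5 normalized cpm in most libraries, which 11795 did, and genes past an FDR of 0.05 and 2-fold were called. Genes that the filter excludes were taken from the same fit over all 15213 genes. Each gland was compared with the tumors in a model of 4 levels, with no filter. The count test of edgeR 4.0.16 (quasi-likelihood) on the recovered reads, as an alternative, called 2074 genes. DESeq2 1.42.0 was a further alternative. The scripts were tested on simulated data.

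The libraries held 6176269 to 23889042 reads. Any pair of libraries differed by a chi-square of at least 20.9 per gene, so that none was listed more than once. The GC content of exons was matched for 97.3% of the listed genes. The members, the pathway list and the marker lists were chosen with earlier results of these data known. The text names all members, all called genes of the pathway list with others of it as context, the 5 genes most like Il13ra1 and Il2rg, and the markers Ptprc, Cd3e and Cd79a. A further gene was left out of the pathway list and its counts and is not reported here. The genes Stat5b, Stat6, Il2ra, Il9r, Crlf2, Il7, Tslp, Retnla, Mrc1 and Clec10a, which were not called, were added outside this rule. The genes of the neutrophil list were named outside it as well. Library preparation is placed by the sources at UNMC and at Novogene without saying which libraries, and no batch was assigned.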

Additional observations from a re-analysis of the deposited data

Results flagged for a closer look

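Among 28 genes tested over the 10 tumors (the 9 genes and the called genes of the pathway list), 2 had a single tumor far from the others on the log2 scale. Fcer2a, the IgE receptor of B cells, was at 6.54 normalized cpm in tumor 1, where the next highest tumor was at 0.798, and tumor 1 also had the highest summed B and plasma cell markers of the tumors. Ccnd2, a D-type cyclin, was at 52.2 normalized cpm in tumor 7, and the next highest tumor was at 15.6. Chance gives such a value in about 5% of groups.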

How the results depend on the processing

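Of 288 combinations of a member and an alternative, 268 kept their direction and their side of the threshold. The call of Il13ra1 was kept under all 32 alternatives (log2 fold change 2.41 to 3.66, highest adjusted p = 0.0327), as was that of Il2rb (-3.40 to -1.68). With the tumors of a mouse averaged, the called members kept their call. The limma adjusted p was then 0.00016 for Il13ra1, 0.00516 for Il2rg, 0.000377 for Il2rb and 0.0438 for Il21r. The number of genes called, 2029, was 3141 without the filter, 3141 with a filter of above 1 normalized cpm in at least 3 libraries and 4966 with the libraries scaled to epithelial genes. This scaling moved the median change over all genes to -0.85 (log2) and the share of higher calls from 59.3% to 10.4%, and 5 members were lower, with Il4ra (-1.05, adjusted p = 0.0142) and Il15 (-1.65, adjusted p = 0.0313) added. Jak3 was at -0.93 (limma adjusted p = 0.0096), short of the 2-fold limit. A library size without Rn45s reads moved the median to 0.38 and the share to 81.2%. Leaving out each library in turn gave 1636 to 2627 genes, 1 member higher each time and 2 (without gland 1) to 4 (without gland 2) members lower. The values that changed sign, none of them called, were those of Il4ra without Rn45s (0.22) and without the mouse of tumors 8, 9 and 10 (0.11), of Il15ra under the epithelial scaling (-0.62), of Il7r without gland 1 (0.25) or gland 3 (0.10), and of Jak3 without Rn45s (0.32), with 1 tumor per mouse (0.012), without the mouse of tumors 8, 9 and 10 (0.026), and without tumors 1 and 9 (0.17). Leaving out single libraries gave -0.36 to 0.31 for Jak3, with a change of sign without tumor 1, tumor 9 or gland 1, and -1.50 (without gland 2, called) to 0.25 for Il7r. The cause was not tested.

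Replicate numbers mark different mice in the groups, and deviations of same-numbered libraries correlated at -0.637, 0.151 and -0.730, so that the numbers do not pair the samples. A replicate block over numbers 1 to 3 called 529 genes and 1 member lower, against 1320 genes and 1 member lower for the same 6 libraries without a block. Il2rg (adjusted p = 0.102 with the block, 0.0585 without it) and Il21r (0.370 and 0.334) were not called in these fits of fewer samples, and Il13ra1 was (adjusted p = 0.0327 and 0.00588). Glands 1 to 3 are single animals, and Il2rb rests on few reads in the tumors.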
